A study of Mus musculus with 36 samples.

Results

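Distal colon RNA of mice given an siRNA against Tnf with O-methyl nucleotides (siTNF-OMe) was compared with that of mice given an siRNA against Tnf for which the labels name no modification (siTNF). The samples titled as the O-methyl siRNA (6) and those titled as the plain siRNA (6) were set against each other, 12 of the 36 samples in the series. Every sample was labelled as mouse colon treated with 5% dextran sulfate sodium (DSS), a polymer that injures the colonic epithelium when mice drink it. The siRNAs were given intrarectally. The other groups were 7 samples with a scrambled siRNA, 8 with an siRNA carrying O-methyl-propanediol (siTNF-OMe-P) and 9 labelled Control, whose treatment label also reads 5% DSS but whose place in the design is not described. The scrambled and siTNF-OMe-P samples entered the fit to share its estimate of spread, and Control was left out of it. Dose, schedule, siRNA sequence, strain, sex and age were not given in the labels, so whether both siRNAs were dosed alike is not known. The labels carry separate colon measurements for each sample, and each was taken as 1 mouse. If samples shared a source, the p-values measure only the spread between these samples.

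Tnf encodes tumour necrosis factor, a cytokine made mainly by macrophages and T cells. It binds the receptors encoded by Tnfrsf1a and Tnfrsf1b and signals through adaptor proteins to NF-kB, a transcription factor that induces cytokines, chemokines and its own inhibitors. An siRNA is a short RNA duplex that the Argonaute protein Ago2 uses to find and cut a matching mRNA. O-methyl groups on the ribose are used to slow breakdown by nucleases and to lower recognition of the duplex by Toll-like receptors, which otherwise can induce interferon-stimulated genes.

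Each sample was measured on 1 Affymetrix array. The values are log2 signals of 28853 probe sets that the authors deposited, and a level below is such a log2 signal. Array medians of the 12 samples lay between 8.01 and 8.15, and correlations between pairs of the 12 arrays over all probe sets lay between 0.950 and 0.996. Both groups were spread over 3 amplification days and 2 hybridization days. The 30 measured genes of colonocytes and transport had mean levels of 10.59 to 11.33 in the 12 arrays, and the 14 smooth muscle genes 11.32 to 11.72, as the tissue label has it.

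Several arrays also carried markers of other tissues, and siTNF replicate 3 stood apart. The mean level of 22 genes of squamous epithelium, the layered lining found in skin and at the anal margin, was 7.36, 7.32, 8.42, 7.18, 7.33 and 7.33 in siTNF replicates 1 to 6. It was 7.37, 8.98, 9.57, 8.46, 9.36 and 7.54 in siTNF-OMe replicates 1 to 6. Thus 4 of 6 siTNF-OMe arrays and 1 of 6 siTNF arrays were above 8, against 0 of 9 Control, 0 of 7 scrambled and 3 of 8 siTNF-OMe-P arrays. The same 5 arrays were the only ones of the 12 with a mean over 8 for 14 skeletal muscle genes, at 9.93 in siTNF replicate 3 and 8.30, 9.03, 8.01 and 8.88 in siTNF-OMe replicates 2 to 5; the other 7 lay between 7.60 and 7.70. Pancreatic acinar genes (11 measured) had means of 10.81 in siTNF replicate 5 and 10.61 in siTNF-OMe replicate 1, against 7.66 to 8.29 in the other 10 arrays. The array of siTNF replicate 3 also had the narrowest spread of values among the 12 (SD 1.69), and that of siTNF replicate 4 had the widest (SD 1.89). Leaving out siTNF replicate 3 moved many of the results, and the list counts it moved are given with and without it. The part of the skeletal muscle signal in the results was not tested.

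**Figure D1:**
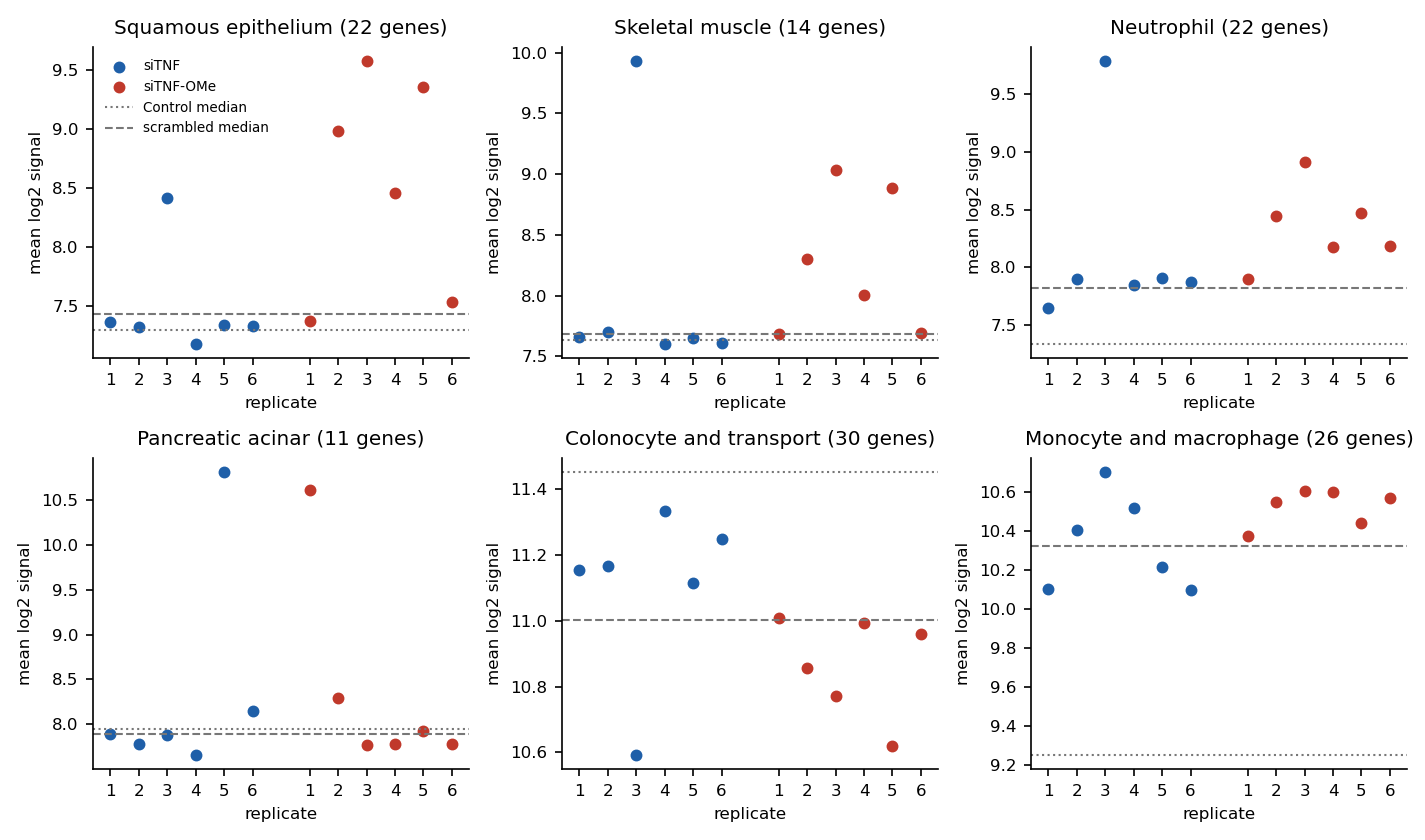
Mean log2 signal of the measured genes of 6 cell type lists (y axis) in each siTNF (blue) and siTNF-OMe (red) array by replicate number (x axis), with the median array mean of Control (dotted) and scrambled (dashed). The 5 arrays above 8 for squamous epithelium are also the 5 above 8 for skeletal muscle, and siTNF replicate 3 has the highest neutrophil mean at 9.79.

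Tnf itself had the levels 9.19, 8.72, 9.42, 9.15, 9.33 and 8.81 in siTNF replicates 1 to 6. In siTNF-OMe replicates 1 to 6 its levels were 9.09, 8.80, 8.80, 8.41, 8.63 and 9.01. The groups overlapped: siTNF replicates 1, 3, 4 and 5 were above all siTNF-OMe arrays, and siTNF replicates 2 and 6 were among them. Tnf was 1.23-fold lower with the O-methyl siRNA, a log2 difference of -0.30 ± 0.16 (SE, 6 arrays a group) with a 95% interval of -0.63 to 0.03. The unadjusted limma p was 0.0737, and after Benjamini-Hochberg adjustment over all probe sets it was 0.879, so the difference did not pass the threshold of 0.05. The interval does not show that the siRNAs act alike: it still holds a level 0.63 lower on the log2 scale. Tnf lay between 7.60 and 8.67 in Control, between 8.36 and 9.47 in scrambled and between 8.42 and 8.94 in siTNF-OMe-P. Within hybridization day 1 the difference was -0.48 and within day 2 it was -0.16, and within amplification days 1, 2 and 3 it was -0.01, -0.59 and -0.25. Leaving out siTNF replicate 3 gave -0.24. Without all arrays with a squamous mean over 8, which leaves 2 siTNF-OMe arrays, the direction turned to 0.04 (unadjusted p 0.885). With the squamous mean as a covariate it was -0.27.

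Colon measurements did not separate the groups either. Myeloperoxidase (MPO) activity, an enzyme assay of neutrophils, was 0.199, 0.442, 0.703, 0.204, 0.208 and 0.057 U per mg in siTNF replicates 1 to 6. It was 1.16, 0.643, 0.384, 0.301, 0.217 and 0.932 U per mg in siTNF-OMe replicates 1 to 6. The highest 2 values were siTNF-OMe, and 0.057, 0.199, 0.204 and 0.208, all siTNF, were below every siTNF-OMe value. The rest interleaved. The mean was 0.606 ± 0.375 (SD, n = 6) with the O-methyl siRNA and 0.302 ± 0.232 (SD, n = 6) with the plain siRNA. The difference of 0.304 U per mg had a 95% interval of -0.100 to 0.721 and p = 0.126 by an exact two-sided permutation test over 924 regroupings (0.502 adjusted over the 4 colon measures). Control lay between 0.009 and 0.088 U per mg and scrambled between 0.238 and 1.35. The smallest p this design allows is 0.00216.

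Colon length, labelled in mm, was 6, 5.8, 6.3, 6.4, 5.3 and 5.2 in siTNF replicates 1 to 6 and 6, 6.2, 6, 5.5, 6.2 and 5.7 in siTNF-OMe replicates. Its mean differed by 0.1 (95% interval -0.433 to 0.633, exact permutation p = 0.727). The labelled weight-to-length ratio was within 0.05 of weight over 10 times the labelled length in all 12 animals and in 34 of 36 samples, so the lengths may be in cm, and they are given as labelled. Colon weight was 167, 159, 195, 171, 149 and 156 mg with the plain siRNA and 168, 170, 172, 164, 177 and 172 mg with the O-methyl siRNA. The means of 166 ± 16.2 and 170.5 ± 4.37 mg (SD, n = 6 each) differed by 4.33 mg (95% interval -11.0 to 18.0, exact permutation p = 0.582). The labelled ratio differed by 0.0303 mg per mm (95% interval -0.149 to 0.209, exact permutation p = 0.701). Each of these 3 measures had an adjusted p of 0.727. Without siTNF replicate 3, whose colon was the heaviest, weight differed by 10.1 mg (exact permutation p = 0.0368, adjusted 0.117) and MPO activity by 0.384 U per mg (p = 0.0584, exact permutation, adjusted 0.117).

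**Figure D2:**
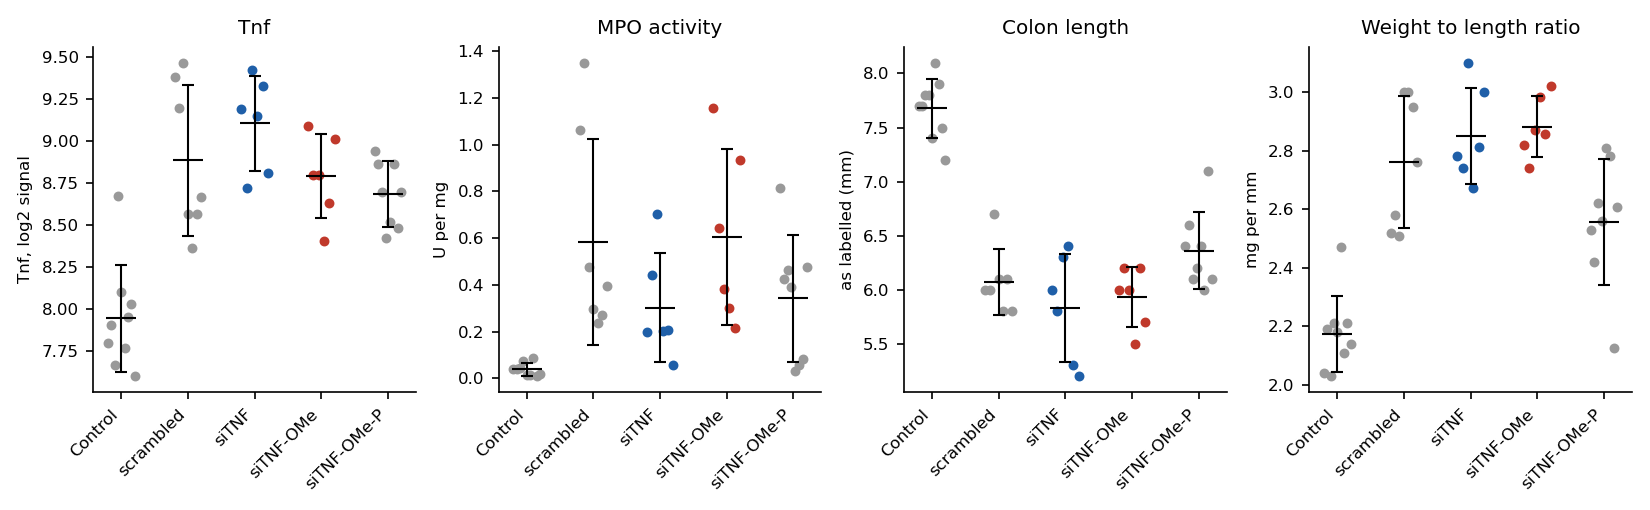
Tnf level (log2 signal), MPO activity (U per mg), colon length (as labelled) and colon weight-to-length ratio (mg per mm as labelled) of each animal in the 5 groups, with the mean (long bar) and SD (whiskers). The siTNF (blue) and siTNF-OMe (red) animals overlap in all 4 panels, and Control has the lowest mean Tnf level and MPO activity of the 5 groups.

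Across all 28853 probe sets none passed an adjusted p of 0.05 (0% called), and the smallest adjusted p was 0.879. At an unadjusted limma p under 0.05 there were 1425 probe sets, 4.94% of all, where 1443 would be counted without any difference. Of these, 597 (2.07%) were higher and 828 (2.87%) lower with the O-methyl siRNA. With each array centred on its median the split was 453 higher and 1019 lower. The 6 values of each group did not overlap at 21 probe sets in the higher direction (0.0728%) and 50 in the lower (0.173%). The median difference over all probe sets was 0.00 (log2).

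The precision sets what these 12 arrays could show. The median SE was 0.0934 and the median half-width of the 95% interval 0.193 on the log2 scale. For 99.1% of probe sets the interval lay within 1 log2 unit either side of 0, and for 89.3% within 0.5, before any allowance for the number of probe sets. A difference of at least 1 log2 unit was measured at 27 probe sets, 26 of them higher.

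Single arrays moved the unadjusted count strongly. When siTNF replicate 3 was left out it was 6818 (23.6%), of which 3563 (12.3%) were higher and 3255 (11.3%) lower, yet 0 passed adjustment and the smallest adjusted p was 0.172. In that set the groups did not overlap at 166 probe sets in the higher direction (0.575%) and 709 in the lower (2.46%). Without siTNF replicate 4 the count was 586, without siTNF replicate 5 it was 908, and without siTNF-OMe replicates 2 or 3 it was 895 or 803, each with 0 called. Within hybridization day 1 there were 527 probe sets at an unadjusted p under 0.05 and within day 2 there were 4421, again with 0 called. With the squamous mean as a covariate the count was 1280 (4.44%), and without the arrays of high squamous mean it was 268 (0.929%). Without the arrays of a pancreatic mean over 9 it was 958 (3.32%). All 3 fits had 0 called.

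**Figure D3:**
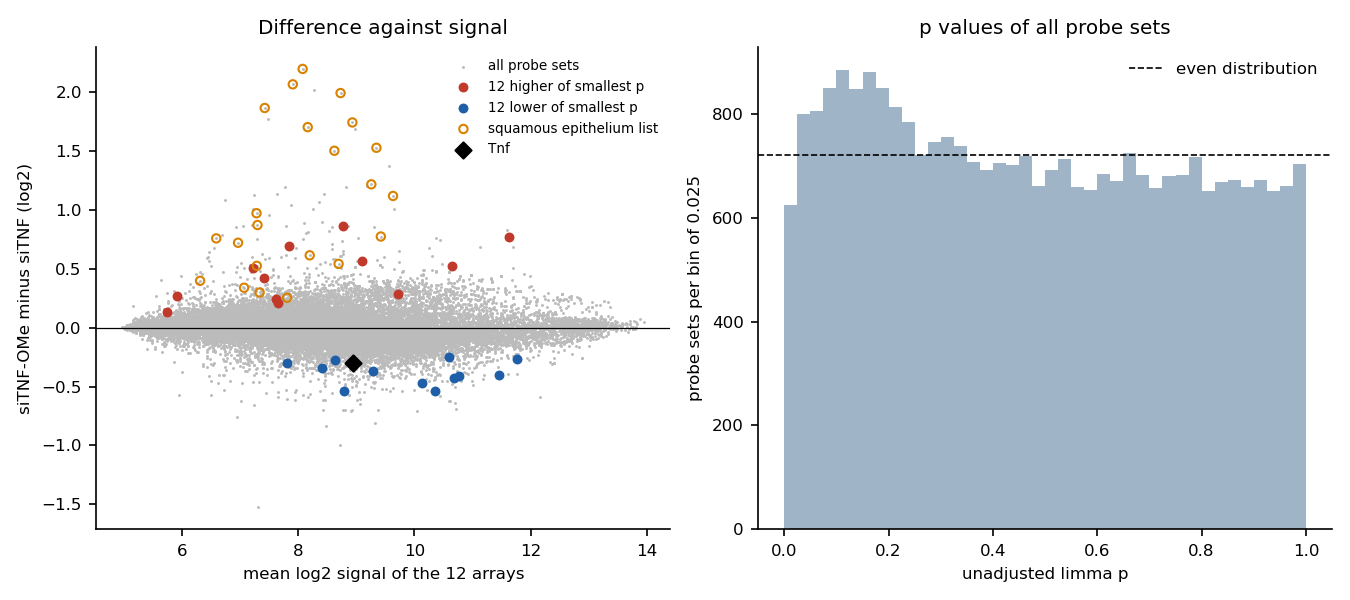
Left, difference of each probe set (siTNF-OMe minus siTNF, log2, y axis) against its mean log2 signal in the 12 arrays (x axis), with Tnf, the squamous epithelium list and the 24 named genes of smallest p marked. Right, number of probe sets per bin of unadjusted limma p, against an even distribution (dashed); the lowest bin lies below that line, and 0 of 28853 probe sets pass adjustment.

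Of the genes that were lower with the O-methyl siRNA, the 12 of smallest unadjusted p had values from 7.42e-05 to 0.00145 and the same adjusted p of 0.879. Hnrnpdl, which encodes an RNA-binding protein of the hnRNP family, headed them. Its levels were 10.58, 10.68, 11.17, 11.35, 10.86 and 10.70 in siTNF replicates 1 to 6 and 10.37, 10.52, 10.45, 10.54, 10.49 and 10.50 in siTNF-OMe replicates. No siTNF-OMe array reached the lowest siTNF array, and the difference was -0.43 ± 0.09 (SE, 6 arrays a group). The scrambled arrays lay between 10.46 and 10.61, across the top of the siTNF-OMe range, and siTNF replicates 3 and 4 were the highest of the 12. Within amplification day 2, which holds those 2 siTNF arrays, the difference was -0.75, and on days 1 and 3 it was -0.23 and -0.28.

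Eif6 encodes a factor that keeps the large ribosomal subunit from joining the small one. It read 11.79, 11.88, 11.89, 12.04, 12.01 and 11.83 in siTNF and 11.66, 11.58, 11.50, 11.52, 11.73 and 11.78 in siTNF-OMe replicates 1 to 6. All 6 siTNF arrays were higher than all 6 siTNF-OMe arrays, narrowly so at the closest pair, and the groups differed by -0.26 ± 0.06 (SE). Eps8l3, of the EPS8 family of actin regulators, ranged from 11.52 to 11.91 in siTNF and from 10.85 to 11.49 in siTNF-OMe (-0.41 ± 0.10). Tesk2, a kinase that acts on the actin-severing protein cofilin, ranged from 10.37 to 11.29 and from 9.96 to 10.17 (-0.54 ± 0.14). Synpo, the actin-associated protein synaptopodin, ranged from 8.67 to 8.93 and from 8.33 to 8.61 (-0.27 ± 0.07). None of these 5 overlapped between the groups, where 0.173% of all probe sets were lower without overlap. They were picked by small p in this same comparison, which favours separation.

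The other 7 overlapped at 1 array or more. Tbc1d2, a regulator of Rab GTPases, differed by -0.54 ± 0.14 and Slc35g1, a solute carrier, by -0.47 ± 0.11. Ifrd1, a transcriptional co-regulator, differed by -0.41 ± 0.11, Plxna2, a semaphorin receptor, by -0.36 ± 0.10 and Acsf2, an acyl-CoA synthetase, by -0.34 ± 0.09. Cpn2, the regulatory subunit of carboxypeptidase N, differed by -0.30 ± 0.08 and Bach1, a haem-binding repressor, by -0.25 ± 0.07. All 12 kept their direction without siTNF replicate 3, with the squamous mean as a covariate and without the arrays of high squamous mean, and none passed adjustment in those fits.

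Of the genes that were higher with the O-methyl siRNA, the 12 of smallest unadjusted p had values from 6.49e-04 to 0.00298. Fabp5, which encodes the fatty acid binding protein of epidermis, read 11.01, 11.32, 11.73, 11.23, 11.16 and 10.95 in siTNF replicates 1 to 6. It read 11.45, 12.17, 12.22, 12.08, 12.24 and 11.93 in siTNF-OMe replicates. Only siTNF replicate 3 and siTNF-OMe replicate 1 crossed, and the difference was 0.77 ± 0.20 (SE). With the squamous mean as a covariate it was 0.45, and without the arrays of high squamous mean 0.59. Control arrays lay between 9.27 and 9.71 for Fabp5.

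Aplnr, the receptor for the peptide apelin on endothelium, was at 8.93, 8.98, 8.88, 8.08, 8.99 and 8.99 in siTNF and at 9.16, 9.63, 9.17, 9.37, 9.69 and 9.30 in siTNF-OMe. The groups did not overlap and differed by 0.57 ± 0.15. Plxnc1, a semaphorin receptor of leukocytes, ranged from 7.38 to 7.65 in siTNF and from 7.66 to 7.86 in siTNF-OMe, also without overlap (0.21 ± 0.06). Tcf21, a transcription factor of mesenchymal cells, differed by 0.53 ± 0.14, Tmem255b by 0.29 ± 0.08 and the predicted gene Gm6815 by 0.27 ± 0.08.

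The other 6 code for structural proteins of hair and skin. Krtap5-2, Krtap6-2, Krtap21-1 and Krtap1-4, genes of keratin-associated proteins of hair, differed by 0.86, 0.69, 0.51 and 0.25. Lce3c and Lce1g, genes of the late cornified envelope of epidermis, differed by 0.42 and 0.14. All 6 overlapped between the groups, and siTNF replicate 4 was the lowest siTNF array for each. Both are families of similar copies, so signal could be shared between members. The 6 differences were 0.08 to 0.76 with the squamous mean as a covariate. Control arrays spanned 7.74 to 8.96 for Krtap5-2, 6.84 to 9.04 for Krtap6-2, 6.64 to 8.29 for Krtap21-1 and 7.26 to 8.00 for Krtap1-4. Lce1g was low, at 5.59 to 5.78 in siTNF and 5.64 to 5.98 in siTNF-OMe, where the lowest value of any probe set was 4.95.

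**Figure D4:**
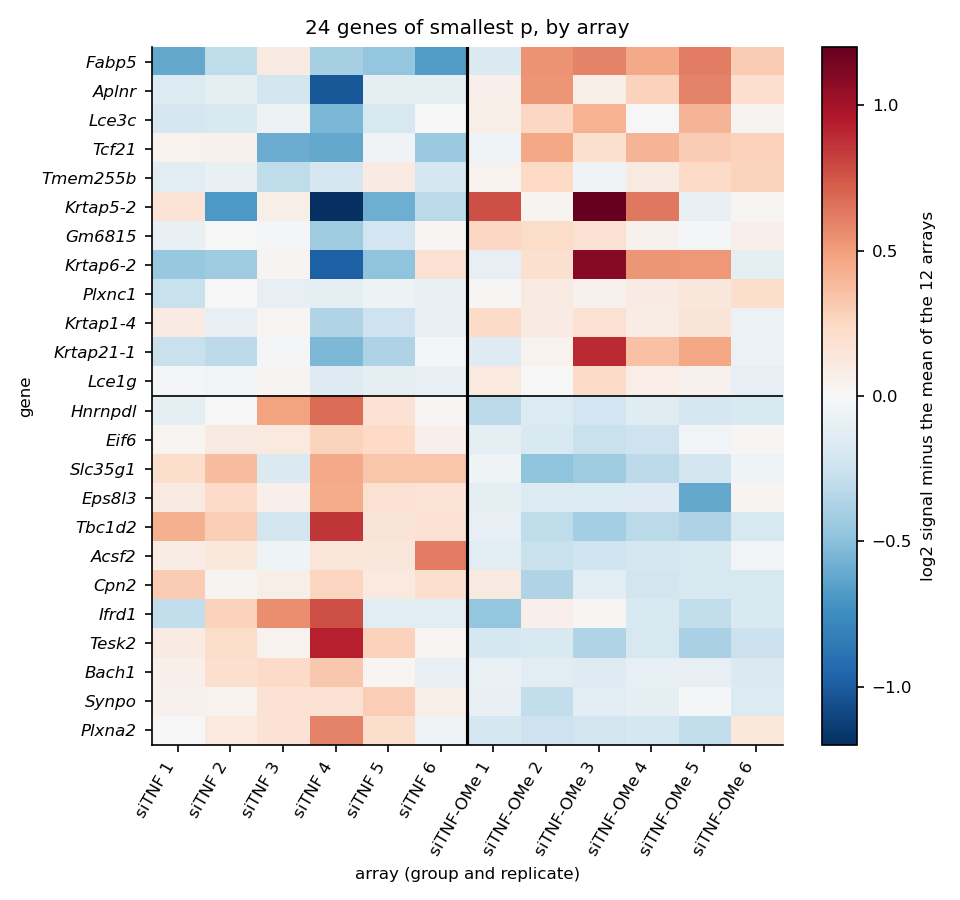
Level of the 24 genes of smallest unadjusted p in each array, as log2 signal minus the gene's mean over the 12 arrays (colour), for 12 genes higher (top) and 12 lower (bottom) with the O-methyl siRNA. Hnrnpdl, Tesk2 and Tbc1d2 are highest in siTNF replicate 4, and 7 of the 24 genes have no overlap between the groups. Picking genes by small p in this comparison favours such separation. Over all probe sets 0.0728% were higher and 0.173% lower without overlap.

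The 38 gene lists held 686 distinct genes, of which 36 were higher and 29 lower at an unadjusted p under 0.05, and 0 were called after adjustment. Over all probe sets the shares at that unadjusted level were 2.07% higher and 2.87% lower. Counts below are at the unadjusted level and describe the lists. The same shares differed between fits, and each alternative count is to be read against its own. They were 12.3% higher and 11.3% lower without siTNF replicate 3, 1.03% and 1.01% without siTNF replicate 4, 1.62% and 2.82% with the squamous mean as a covariate, and 0.509% and 0.419% without the arrays of high squamous mean.

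TNF ligand, receptor and proximal signalling genes (21 measured) had 0 higher and 1 lower, with a median difference of 0.03. That median was near 0 and its direction changed between fits. Without siTNF replicate 3 the list had 4 lower, beside 11.3% of all probe sets, 12 of 21 members were below 0 and the median was -0.09. The median was -0.01 within hybridization day 1 and -0.03 within day 2. The receptors Tnfrsf1a and Tnfrsf1b differed by 0.16 and 0.10 and the sheddase Adam17, which releases TNF from the membrane, by 0.11. Birc3, an inhibitor of apoptosis that TNF signalling induces, was the 1 member at an unadjusted p under 0.05 (-0.28 ± 0.10, SE).

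NF-kB subunits and feedback targets (24 measured) had 0 higher and 4 lower, with a median of -0.06. That median turned to 0.03 without siTNF replicate 3 (1 higher, 3 lower) and to 0.10 without the arrays of high squamous mean. The 4 were Tnfaip3 (-0.40 ± 0.13), Nfkbia (-0.40 ± 0.16), Tnip1 (-0.32 ± 0.11) and Nfkbib (-0.20), all of which encode inhibitors of the pathway. Tnfaip3, the ubiquitin-editing enzyme A20, read 9.77, 9.65, 10.62, 9.67, 9.89 and 9.72 in siTNF and 9.58, 9.30, 9.72, 9.42, 9.39 and 9.71 in siTNF-OMe replicates 1 to 6. The highest array was siTNF replicate 3, and the other 5 siTNF arrays overlapped with the upper 2 of siTNF-OMe. The difference was -0.25 without siTNF replicate 3 (unadjusted p 0.0367). Tnip1, which encodes a partner of A20, read 10.10, 9.77, 10.19, 10.05, 9.68 and 9.62 in siTNF and 9.78, 9.43, 9.56, 9.56, 9.56 and 9.62 in siTNF-OMe. Without the arrays of high squamous mean Tnfaip3 differed by -0.05 and Tnip1 by -0.12, and 0 members were at an unadjusted p under 0.05 in either direction. Among the other targets Icam1 differed by -0.06 and Ptgs2 by 0.16.

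The upstream sequence of the 2 genes of smallest p in that list is shown because both are feedback inhibitors of the factor downstream of TNF. The bases are the 250 before a transcript start in RefSeq (GRCm38.p6), 5′ to 3′ on the minus strand, at chr10:19015411-19015660 for Tnfaip3 and chr11:54962941-54963190 for Tnip1. Capitals mark matches to the 10-base NF-kB consensus on either strand, 2 for Tnfaip3 and 3 overlapping for Tnip1.
Tnfaip3: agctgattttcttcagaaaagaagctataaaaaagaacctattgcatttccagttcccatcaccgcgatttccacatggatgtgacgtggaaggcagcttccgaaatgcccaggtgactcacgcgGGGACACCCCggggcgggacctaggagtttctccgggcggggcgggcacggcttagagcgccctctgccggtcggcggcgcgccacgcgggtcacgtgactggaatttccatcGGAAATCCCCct
Tnip1: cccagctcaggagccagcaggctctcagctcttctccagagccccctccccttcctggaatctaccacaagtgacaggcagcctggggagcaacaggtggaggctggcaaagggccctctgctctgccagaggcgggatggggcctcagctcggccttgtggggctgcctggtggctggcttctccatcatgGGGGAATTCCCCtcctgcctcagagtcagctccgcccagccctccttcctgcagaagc
Among all 32851 windows of 300 bases in the table, 8.46% held a match. The windows of Tnf and Birc3 and a second start of Tnfaip3 held 0, which says only that these letters are not in those windows. A match is a description of the sequence and was not tested as a binding site.

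Cytokines (27 measured) had 0 at an unadjusted p under 0.05, with a median of 0.04 (0.17 without siTNF replicate 3). Il1b differed by 0.28 ± 0.45 and Il6 by -0.08 ± 0.51. Il6, a cytokine of acute inflammation, read 5.50, 5.87, 10.06, 5.42, 5.69 and 5.77 in siTNF and 5.48, 6.80, 7.60, 6.53, 6.83 and 5.96 in siTNF-OMe. Its level in siTNF replicate 3 was far above all other 11 arrays. Without that array the list had 4 members higher and 1 lower, beside 12.3% and 11.3% of all probe sets.

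Chemokines (29 measured) had 2 higher and 1 lower, with a median of 0.00, and 3 higher and 1 lower without siTNF replicate 3 (median 0.13). Ppbp, the platelet basic protein that attracts neutrophils, read 6.92, 6.80, 9.22, 6.85, 6.82 and 6.94 in siTNF and 6.89, 10.60, 11.27, 8.81, 10.87 and 7.35 in siTNF-OMe (2.02 ± 0.78). The 5 arrays above 8 were those with a squamous mean over 8, and with that mean as a covariate the difference was 0.14. Ccl19, a lymphocyte attractant, differed by 0.36 and Ccl20, an epithelial attractant of dendritic and T cells, by -0.25.

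In the leukocyte lists a difference in bulk RNA cannot be told apart between more or fewer cells and more or less RNA per cell. Neutrophil genes (22 measured) had 0 at an unadjusted p under 0.05, and their array means were 7.64, 7.90, 9.79, 7.84, 7.90 and 7.87 in siTNF and 7.90, 8.44, 8.91, 8.18, 8.47 and 8.18 in siTNF-OMe. Apart from siTNF replicate 3, which was the highest, the siTNF-OMe arrays were level with the highest siTNF arrays (replicate 1) or above them (the other 5). S100a8, a subunit of calprotectin, differed by 0.65 ± 0.56 and S100a9, its partner, by 0.68 ± 0.49. The neutrophil list without siTNF replicate 3 had 7 higher and 0 lower, with a median of 0.34, beside 12.3% higher over all probe sets, and with the squamous mean as a covariate 0 higher and 1 lower, with a median of -0.05. The Mpo transcript itself differed by 0.07 and was low, between 6.77 and 7.27 in the 12 arrays.

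Monocyte and macrophage genes (26 measured) had 6 higher and 0 lower, 23 were above 0 and the median was 0.17. The 6 were Aif1 (0.30), Cd68 (0.24), Lyz2 (0.23), C1qc (0.20), Tyrobp (0.19) and Lyz1 (0.18). Lyz2, the lysozyme of myeloid cells, read 12.46, 12.67, 12.56, 12.64, 12.45 and 12.35 in siTNF and 12.65, 12.87, 12.75, 12.78, 12.68 and 12.82 in siTNF-OMe. The siTNF-OMe arrays lay at or above the upper siTNF arrays, with 1 pair of values crossing narrowly. Cd68, a lysosomal protein of macrophages, ranged from 10.94 to 11.47 and from 11.34 to 11.62. The median was 0.20 without siTNF replicate 3 (4 higher), 0.20 with the squamous mean as a covariate (5 higher) and 0.24 without the arrays of high squamous mean (26 of 26 above 0, 0 at an unadjusted p under 0.05). Control arrays lay between 10.18 and 11.60 for Lyz2.

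Mast cell and eosinophil genes (16 measured) had 3 higher and 0 lower, Cpa3 (0.17), Mcpt4 (0.18) and Tpsb2 (0.21), which encode mast cell proteases. That count was 10 higher without siTNF replicate 3, beside 12.3% of all probe sets, 1 with the squamous mean as a covariate and 0 without the arrays of high squamous mean. T and NK cell genes (24 measured) had 2 higher, Cd4 (0.27) and Thy1 (0.25), against 7 without siTNF replicate 3 and 0 with the covariate. B and plasma cell genes (20 measured) had 0, and 2 higher without siTNF replicate 3, where 12.3% of all probe sets were higher.

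Interferon and RNA-sensing genes bear on how an RNA duplex is recognised. Type I interferon response genes (28 measured) had 0 higher and 0 lower at an unadjusted p under 0.05, with a median of 0.08 and differences from -0.13 to 0.24. The direction of that median changed with the arrays used. It was -0.01 without siTNF replicate 3 (13 of 28 above 0), 0.21 without siTNF replicate 4 and 0.27 without the arrays of high squamous mean (28 of 28 above 0). Within hybridization day 1 it was 0.22 (27 above 0), and within day 2 it was -0.18 (24 below 0, 2 of them at an unadjusted p under 0.05). In that day 2 fit 2061 of all 28853 probe sets were lower at the same level. Irf7, a transcription factor of the type I interferon response, read 10.66, 10.94, 10.48, 11.54, 10.91 and 10.35 in siTNF and 11.04, 10.90, 11.21, 11.08, 10.71 and 11.47 in siTNF-OMe. The groups were interleaved and differed by 0.24 ± 0.20, with a 95% interval of -0.18 to 0.66. That difference was 0.10 without siTNF replicate 3, 0.39 without siTNF replicate 4 and 0.08 without siTNF-OMe replicate 6. Oas2, an RNA-activated synthetase, differed by 0.19 ± 0.14, and by 0.12 without siTNF replicate 1. Genes of the interferon gamma response (14 measured) and of RNA sensing and Toll-like receptors (20 measured) also had 0 in each direction, with medians of 0.10 and 0.00. The gamma median was 0.38 within hybridization day 1 and turned to -0.24 within day 2. It was 0.45 with the squamous mean as a covariate and 0.59 without the arrays of high squamous mean. The double-stranded RNA sensor Ifih1 differed by -0.10, Tlr3 by -0.11, Tlr7 by 0.00 and Tlr8 by 0.08. The RNA interference machinery (16 measured) had 0 in each direction and a median of -0.04. Ago2 differed by -0.03 ± 0.07 and Dicer1, the nuclease that makes small RNAs, by -0.16 ± 0.09 (-0.08 without siTNF replicate 4). The machinery list had 2 lower and a median of -0.14 without siTNF replicate 3, and the RNA-sensing list 1 lower, beside 11.3% of all probe sets.

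Among epithelial lists, colonocyte and transport genes, which serve absorption (30 measured), had 0 higher and 6 lower, 25 were below 0 and the median was -0.14. Slc20a1, a phosphate transporter, read 11.63, 11.16, 10.24, 11.46, 10.63 and 11.38 in siTNF and 10.45, 10.49, 9.97, 10.88, 10.31 and 9.95 in siTNF-OMe. Of the siTNF arrays, replicates 3 and 5 lay inside the siTNF-OMe range and the other 4 above it, and the difference was -0.69 ± 0.26. Slc26a3, the chloride-bicarbonate exchanger of colonocytes, read 12.62, 12.57, 11.70, 12.53, 12.71 and 12.73 in siTNF and 12.18, 11.79, 11.95, 12.15, 10.72 and 12.25 in siTNF-OMe (-0.59 ± 0.25, and -0.36 without siTNF-OMe replicate 5). The array of siTNF replicate 3 was the only siTNF array inside the siTNF-OMe range. The water channel Aqp8 differed by -0.58 ± 0.26 and the sulfotransferase Sult1a1 by -0.39.

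The sodium channel subunits Scnn1b and Scnn1g, the last 2 of the 6, had another pattern. Scnn1b read 7.73, 7.45, 9.11, 9.61, 7.51 and 7.03 in siTNF and between 7.36 and 7.92 in siTNF-OMe. Scnn1g read 7.55, 7.56, 9.04, 9.90, 7.51 and 7.52 in siTNF and 7.52 to 8.13 in siTNF-OMe. Only siTNF replicates 3 and 4 stood out, and the other 4 siTNF arrays were within or below the siTNF-OMe range for Scnn1b and at its lower edge for Scnn1g. Without siTNF replicate 3 the colonocyte list had 13 lower and 0 higher (median -0.28), beside 11.3% lower over all probe sets. With the squamous mean as a covariate it had 1 higher and 3 lower (median -0.05), and without the arrays of high squamous mean 0 higher and 1 lower (median -0.16). It had 2 lower without siTNF replicate 4, beside 1.01% of all probe sets.

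Goblet cell genes (20 measured) had 0 higher and 2 lower, with 17 below 0 and a median of -0.10. Spdef, a transcription factor of goblet cells, read 9.75, 9.60, 8.98, 9.73, 9.77 and 9.68 in siTNF and 9.37, 8.92, 9.10, 8.97, 9.26 and 9.54 in siTNF-OMe (-0.34 ± 0.11). All siTNF arrays but replicate 3 were above all siTNF-OMe arrays. Muc2, the main gel-forming mucin, differed by -0.16 ± 0.07. The goblet list had 10 lower and 0 higher (median -0.23) without siTNF replicate 3, beside 11.3% lower over all probe sets. It had 1 lower with the squamous mean as a covariate (median -0.04, 9 of 20 above 0) and 0 lower without the arrays of high squamous mean (8 above 0). Junction and claudin genes (20 measured) had 1 lower, Cgn (-0.26), which encodes the tight junction protein cingulin, and 10 lower without siTNF replicate 3 (median -0.23), again beside 11.3%. With the covariate the junction list had 1 lower and a median of -0.04.

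All 14 measured genes of mitochondrial fatty acid oxidation were below 0 (median -0.12), with 1 at an unadjusted p under 0.05, the short-chain dehydrogenase Acads (-0.40 ± 0.14). It was 8.94 to 9.82 in siTNF and 8.74 to 9.34 in siTNF-OMe. Without siTNF replicate 3 the list had 8 lower, beside 11.3% of all probe sets, and with the squamous mean as a covariate 0 lower, with 4 of 14 above 0. Xenobiotic and hormone metabolism genes (20 measured) had 0 higher and 3 lower (median -0.22): Hsd11b2 (-0.49), which inactivates glucocorticoids, Gsta3 (-0.48) and Sult1a1 (-0.39). That list had 8 lower without siTNF replicate 3, beside 11.3% of all probe sets, 0 lower without siTNF replicate 4 and 1 lower with the squamous mean as a covariate. Gsta3 differed by -0.28 and -0.30 without siTNF replicates 3 and 4. All 13 adipocyte genes were below 0 (median -0.16), with 1 at an unadjusted p under 0.05, Pparg (-0.34 ± 0.11), which colonocytes express too. The lowest member was Cidec, a lipid droplet protein (-0.62). Within hybridization day 2 the adipocyte median turned to 0.16, with 9 of 13 above 0. Hypoxia and glycolysis genes (15 measured) had 0 higher and 3 lower, Adm (-0.53 ± 0.23), Vegfa (-0.33 ± 0.11) and Ldha (-0.11). Adm, the vasodilator peptide adrenomedullin, was highest in siTNF replicate 3 at 11.94 and differed by -0.28 without it. Endoplasmic reticulum stress genes (16 measured) had 0 higher and 3 lower: Herpud1 (-0.35), Ern2 (-0.34) and Atf4 (-0.15). Herpud1 differed by -0.16 without siTNF replicate 4, where the stress list had 0 lower. That list had 4 lower without siTNF replicate 3, beside 11.3% of all probe sets.

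Extracellular matrix and fibroblast genes (22 measured) had 3 higher and 0 lower, with a median of 0.13. They were the collagen gene Col3a1 (0.37 ± 0.16) and the small proteoglycan genes Lum (0.31) and Dcn (0.24 ± 0.08). Dcn read 12.38, 12.44, 12.92, 12.57 and 12.30 in siTNF replicates 1 to 5, was lowest in replicate 6, and read 12.48, 12.88, 12.96, 12.83, 12.76 and 12.43 in siTNF-OMe, with the groups overlapping. The list had 6 higher without siTNF replicate 3, beside 12.3% of all probe sets, and 0 higher and 0 lower with the squamous mean as a covariate. Wound healing and epithelial repair genes (20 measured) had 1 higher and 2 lower. Mmp10, a matrix protease of wounded epithelium, was at 8.44 to 9.00 in 5 siTNF arrays and 10.84 in replicate 3, and at 9.00, 10.77, 10.72, 10.28, 10.81 and 9.88 in siTNF-OMe (1.01 ± 0.45). Antimicrobial epithelial genes (24 measured) had 1 higher and 1 lower. Without siTNF replicate 3 they had 4 higher and 2 lower, beside 12.3% and 11.3% of all probe sets. Reg3g, a bactericidal lectin, differed by 0.95 ± 0.42, with siTNF-OMe replicate 1 at 10.22 and the other 11 arrays between 6.49 and 7.88. Without that siTNF-OMe array the Reg3g difference was 0.36. Saa2, an acute phase protein, differed by -0.41 ± 0.13, with siTNF replicate 3 at 9.41, and by -0.25 without that array.

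Cell cycle, smooth muscle, tuft cell, enteric neuron and glia, class I presentation and red blood cell genes had 0 at an unadjusted p under 0.05 in either direction, and their medians lay between 0.01 and 0.05. Without siTNF replicate 3 these 6 lists had at most 2 in either direction and medians of -0.10 to 0.17. Dendritic cell and class II presentation, endothelium, enteroendocrine and lipid mediator genes had 1 higher and 0 lower each (Itgax, Tek, Nts and Alox12). Crypt stem cell and Wnt genes had 1 lower, the ubiquitin ligase gene Rnf43 (-0.34 ± 0.12), which restrains Wnt signalling. These 5 lists had at most 2 in either direction without siTNF replicate 3.

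The squamous genes had the highest list median. All 22 measured members were above 0, 14 at an unadjusted p under 0.05 and 0 called, with a median of 0.92 and differences from 0.25 to 2.20. Krt1, a keratin of cornifying epidermis, read 6.93, 6.89, 7.40, 6.76, 6.94 and 6.68 in siTNF and 6.94, 9.13, 10.86, 9.22, 10.02 and 7.12 in siTNF-OMe. Replicates 2 to 5 of siTNF-OMe were high and replicates 1 and 6 were at the siTNF level, so the difference of 2.07 had an SE of 0.75. Lor, which encodes the cornified envelope protein loricrin, was at 6.40 to 8.51 in siTNF and at 6.83, 9.74, 11.27, 10.04, 10.28 and 6.90 in siTNF-OMe (2.20 ± 0.81). Krt5, the keratin of basal squamous cells, was at 11.85 in siTNF replicate 3 and at 6.96 to 7.48 in the other 5 siTNF arrays, and at 7.44, 10.81, 11.80, 9.83, 11.23 and 7.88 in siTNF-OMe (1.74 ± 0.90). The keratins Krt13 and Krt4 of non-cornifying squamous lining differed by 1.99 and 1.87. The list had 21 of 22 higher (median 1.04) without siTNF replicate 3, beside 12.3% of all probe sets. That array was the only siTNF array with a squamous mean over 8, so leaving it out by itself widens these differences. Without the arrays of high squamous mean, a list that picked those arrays, the median was 0.13. The skeletal muscle list had 0 at an unadjusted p under 0.05 and a median of 0.22. Leaving out siTNF replicate 3 gave 7 higher, 14 of 14 above 0 and a median of 0.50, beside 12.3% of all probe sets higher. It was also the only siTNF array with a high skeletal muscle mean, so the same limit holds for this count. With the squamous mean as a covariate the direction turned, with a median of -0.53 and 0 of 14 above 0. Tnnc2, a troponin of fast muscle, was at 12.43 in siTNF replicate 3 and at 9.90 to 12.11 in siTNF-OMe replicates 2 to 5.

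Of the 22 annotated genes that differed by at least 1 log2 unit, Alb was the only lower one (-1.53 ± 0.66). This gene of serum albumin was at 10.45 and 10.30 in siTNF replicates 3 and 4 and between 6.54 and 6.80 in the other 10 arrays. Both of those arrays were amplified on day 2, as were siTNF-OMe replicates 2 to 4, which were at 6.67 to 6.76. High Alb values also occurred outside these groups, up to 11.94 in scrambled, 9.42 in Control and 9.48 in siTNF-OMe-P. The medians of those groups were 6.85, 7.19 and 6.75.

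**Figure D5:**
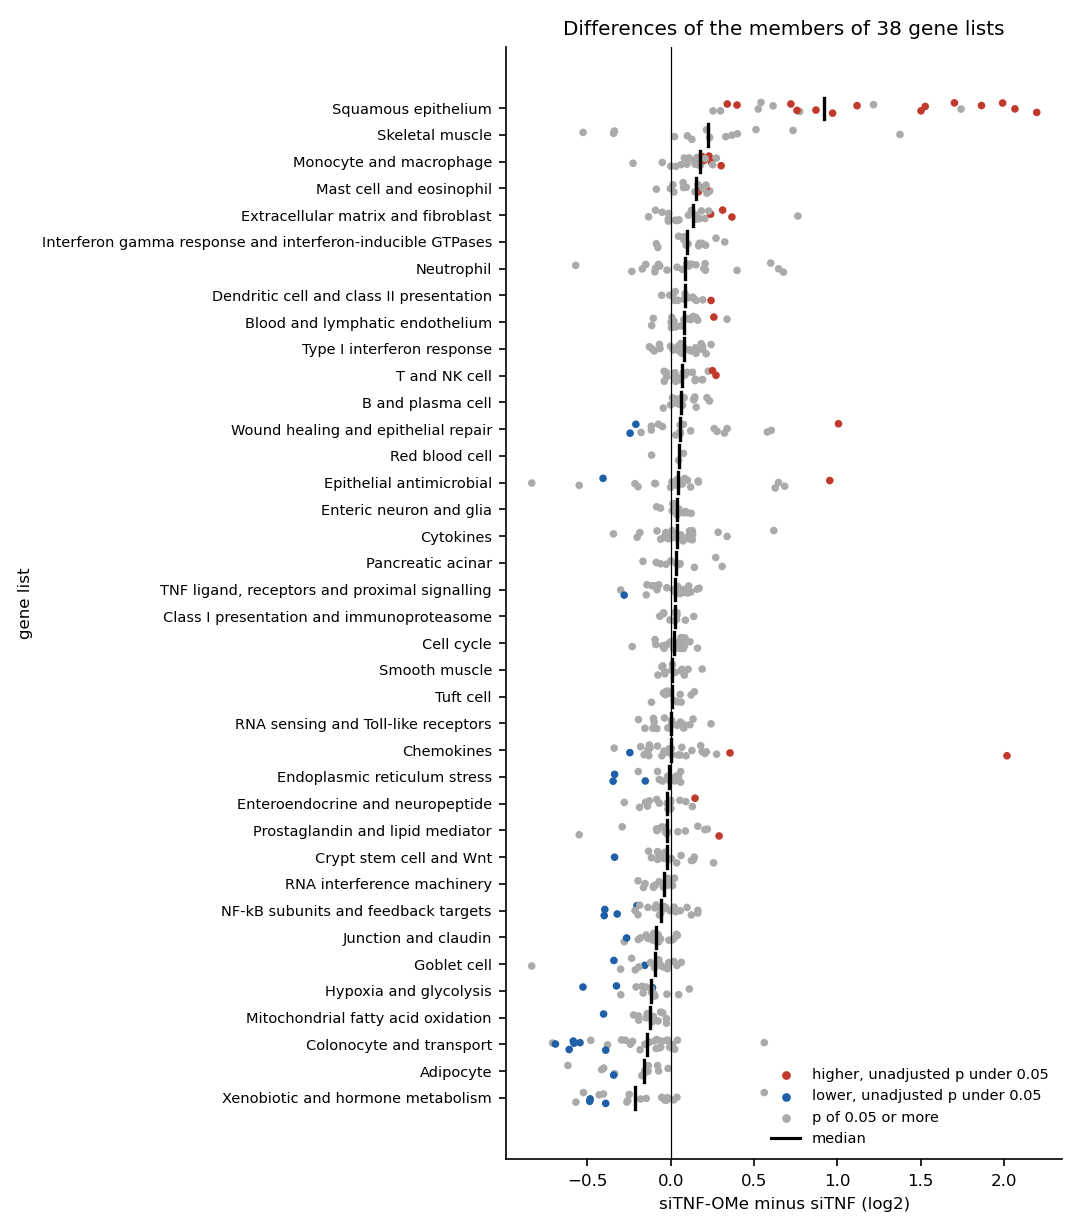
Difference of each measured member (siTNF-OMe minus siTNF, log2, x axis) of the 38 gene lists (y axis), with members at an unadjusted limma p under 0.05 in red (higher) or blue (lower) and the list median as a black bar. The squamous epithelium list has the highest median, 0.92, and xenobiotic and hormone metabolism the lowest, -0.22; 0 members of any list were called after adjustment.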

How the data were processed

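Whole-transcriptome amplification from 25 ng of total RNA preceded biotin labelling, per the labels' protocols. The authors deposited log2 signals per probe set of Affymetrix arrays, for which the submitters' processing notes name RMA and Partek without versions. Removal of batch effects and the transcriptome build of the probes are not given in the sources used here. Of the 28853 probe sets, 21789 carried 1 gene in the platform annotation, 1621 several and 5443 none (19938 genes). Gene IDs of 21698 of these probe sets matched RefSeq. No pair of arrays was identical, and 0 columns lacked a sample.

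The 27 siRNA-dosed arrays were fitted in limma 3.58.1 (R 4.3.3) with group, amplification day and hybridization day as factors (20 residual degrees of freedom), moderated by empirical Bayes along the trend of variance with mean signal. The contrast was siTNF-OMe minus siTNF, the single pair of siRNAs compared, two-sided, with Benjamini-Hochberg adjustment over all probe sets and a threshold of 0.05. Every gene-level p and SE in the text is from this fit, unless another set of arrays or another model is named beside it. Fold changes are from differences of log2 values. The number of arrays limits the precision, and signal over background was not used here. MPO activity, colon length, weight and ratio, copied from the labels, were compared by exact two-sided permutation, with intervals from inverting that test. Scripts ran in Python 3.11.15 with pandas 2.3.3, matplotlib 3.10.9, SciPy 1.17.1 and NumPy 2.4.6. The fit and the permutation test were checked on simulated data.

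The text names Tnf, the called genes filled up to 12 higher and 12 lower by smallest p, and the 2 members of smallest p of each list. A gene with several probe sets is given by the brightest. Genes in the text outside that rule, such as Nfkbia, Il6, S100a8, Scnn1b, Lor and Alb, were chosen after their values were seen. The comparison, the 38 lists (704 of 763 places measured) and the rule were chosen with earlier results of these data known. Alternatives were other batch terms, each day alone, other sets of arrays, the replicate number as a block, other normalizations, moderation and filters, array weights and each array left out. Fits using the squamous and pancreatic means, with limits of 8 and 9, were added after seeing the data.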

Additional observations from a re-analysis of the deposited data

Results flagged for a closer look

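In 284 groups of 6 values, 40 values lay far from the other 5 of their group by Dixon's 95% criterion. Chance gives about 1 in 20 groups.

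Of the 40, 21 were siTNF replicate 3. It was above the other 5 for Tnfaip3 (10.62), Ppbp (9.22), Cd44 (8.92), Mmp10 (10.84), Krt1 (7.40), Mb (9.54) and Tnnc2 (12.43). It was below them for Spdef (8.98), Slc26a3 (11.70), Cela1 (10.61), Hsd11b2 (10.09) and Acads (8.94). Among list means it was above for cytokines (8.37), chemokines (9.56), neutrophils (9.79), squamous epithelium (8.42) and skeletal muscle (9.93). It was below for goblet cells (10.49), colonocytes and transport (10.59), junctions and claudins (10.12) and endoplasmic reticulum stress (9.97).

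Replicate 4 of siTNF was far from the others in 7 genes. It was above for Tesk2 (11.29), Dicer1 (9.77) and Herpud1 (11.88) and below for Aplnr (8.08), Plcb2 (7.31), Col3a1 (9.80) and Alox12 (7.19). The pancreatic list mean stood out in siTNF replicate 5 (10.81) and siTNF-OMe replicate 1 (10.61), as did the trypsinogen gene Try4 (9.80 and 10.41). In siTNF-OMe replicate 1, Gbp7 (10.51) and Reg3g (10.22) were also above the other 5.

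Single values stood apart for Acsf2 in siTNF replicate 6 (9.03), for Eps8l3 (10.85) and Slc26a3 (10.72) in siTNF-OMe replicate 5, for Plxna2 (9.42) and H2-Eb1 (12.02) in siTNF-OMe replicate 6, and for Gsta3 in siTNF-OMe replicate 3 (9.11).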

How the results depend on the processing

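No probe set passed adjustment in any setting other than within amplification days 1 and 2, where 61 and 15 passed (4 and 2 of the named genes, 25 and 2 of the list genes). The fit within day 1 had 1 residual degree of freedom; the cause was not tested. At an unadjusted p under 0.05 the count was 1425 and moved by over 1.5 times to 4421 and 527 within hybridization days 2 and 1, to 367, 3580 and 680 within amplification days 1 to 3, to 494 with all 36 arrays and to 6940 without arrays of SD under 1.7. Of the siTNF and siTNF-OMe arrays only siTNF replicate 3 had an SD under 1.7, so that last fit also left it out. The count was 2317 with array SD as a covariate, 2414 with array weights and 586 to 6818 with 1 array left out in turn. Other batch terms, quantile normalization, median centring, leaving out the lowest 40% of probe sets, other moderation and 1 probe set per gene kept it between 1007 and 1814. Fewer probe sets were tested without the lowest 40% (1145 of 17312, 6.61%) and with 1 per gene (1007 of 19938, 5.05%). The share in the main fit was 4.94%.

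The labels do not say that a shared replicate number marks a shared source. Deviations of same-numbered arrays from their group means correlated at 0.0370 to 0.365, all above 0 and 4 of 6 over 0.1. These values do not settle whether the numbers mark pairs, and the main fit did not take them as pairs. Of the 6, 5 shared the amplification day and 4 both days, and 2 of 6 siTNF arrays correlated best with their own number. With the replicate number as a block 0 probe sets were called and 2812 had an unadjusted p under 0.05; Tnf then differed by -0.31 (unadjusted p 0.0473, adjusted 0.510).

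Tnf was lower in every setting, from -0.59, except without the arrays of squamous mean over 8, where it was 0.035; with 1 array left out it was -0.41 to -0.23, and its smallest adjusted p was 0.280. Probe sets without overlap between the groups numbered 21 higher and 50 lower, and 76 to 875 in all with 1 array left out in turn, which by itself makes separation easier; they were 875 without siTNF replicate 3, 350 without siTNF replicate 6, and 176 and 174 without siTNF-OMe replicates 1 and 5.

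With 1 animal left out in turn the difference was 0.193 to 0.384 U per mg in MPO activity, -0.0267 to 0.213 in colon length, 0.900 to 10.1 mg in weight and -0.0055 to 0.0801 in the ratio. Colon length turned to -0.00667 and -0.0267 without siTNF replicates 5 and 6, and the ratio to -0.0055 without siTNF replicate 4.

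Of 3450 values of named genes under alternatives, 46 turned direction (32 genes) and 6 passed adjustment, and 23 of 1330 list medians moved by over 1 SD; causes were not tested. Within hybridization day 1 Cela1 turned to 0.0552. Within hybridization day 2 Psmb9 turned to -0.27, Gbp7 to -0.14, Bub1 to -0.017, Myl9 to -0.0038, Cidec to 0.18 and Alas2 to 0.014. Within amplification day 1 the values were -0.14 for Tcf21, -0.061 for Il33, 0.19 for Cd177, -0.61 for Stfa3, 0.011 for Muc2, 0.042 for Cgn, 0.014 for Gcg, 0.017 for Rnf43, -0.010 for Dcn, -0.021 for Tek, -0.042 for Pecam1, -0.37 for Krt1, 0.069 for Cela1, -0.53 for Mb, -0.91 for Tnnc2 and 0.11 for Pla2g2a. Within day 2 they were -0.0094 for Psmb9, -0.078 for Oas2, 0.013 for Gcg and -0.073 for Bub1. Within day 3 they were -0.038 for Blk, 0.037 for Ticam1, 0.057 for Saa2, 0.073 for Cldn4, -0.033 for Myl9, 0.81 for Cidec, -1.48 for Try4, 0.041 for Alas2, -0.014 for Epb42, 0.12 for Adm and 0.13 for Gsta3. Psmb9 was -0.020 without arrays of SD under 1.7. With 1 array left out Psmb9 ranged from -0.041 (siTNF replicate 3 out) to 0.173, Alas2 from -0.195 to 0.0034 (siTNF replicate 3 out) and Try4 from -0.42 (siTNF-OMe replicate 1 out) to 0.698. With the squamous mean as a covariate Stfa3 was -0.045, Cd44 -0.0050, Mb -0.12 and Tnnc2 -0.30.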

Other observations

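Chd7, which encodes a chromatin remodelling ATPase, is represented by 30 probe sets on this array and was picked out after its values were seen. Of the 30, 29 were lower with the O-methyl siRNA and 21 were lower at an unadjusted limma p under 0.05 (70%), where 2.87% of all probe sets were. Among the 24 genes with 10 or more probe sets, the next highest share was 13.3% and the median was 0%. The probe sets share their RNA and are not replicates of the comparison. Their mean level was 8.28, 8.10, 8.06, 8.35, 8.14 and 8.07 in siTNF replicates 1 to 6 and 8.10, 7.81, 7.90, 7.91, 7.76 and 7.92 in siTNF-OMe replicates, so only siTNF-OMe replicate 1 lay among the siTNF arrays. Scrambled arrays lay between 7.93 and 8.40 and siTNF-OMe-P arrays between 7.69 and 8.06. The median difference of the 30 was -0.26, the smallest unadjusted p 3.05e-04 and its adjusted p 0.879. Without siTNF replicate 3, 23 of the 30 were lower at an unadjusted p under 0.05, where 11.3% of all probe sets were.

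Within amplification day 2, which holds siTNF replicates 3 and 4 and siTNF-OMe replicates 2 to 4, 15 probe sets passed adjustment, 2 higher and 13 lower with the O-methyl siRNA. They include the sodium channel genes Scnn1b and Scnn1g and Sgk1, a kinase that activates that channel, besides Hnrnpdl and Tcf21. Within amplification day 1, with 1 siTNF-OMe and 2 siTNF arrays and 1 residual degree of freedom, 61 passed, 46 higher and 15 lower. Of the pancreatic list 10 genes were among them, and the siTNF-OMe array there is the replicate with a pancreatic list mean of 10.61.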
